A study of Mus musculus with 6 samples.

Results

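miR-155 is described here through both mature arms of its hairpin, miR-155-5p and miR-155-3p, which are 2 of the 1960 mature miRNAs in the deposited count table and were taken from it by name. Small RNA was sequenced from liver-infiltrating immune cells of wildtype female C57BL/6J mice aged 10 weeks, in 3 groups with 2 libraries each that the labels call biological replicates. ConA+D8THC mice were given 12.5 mg/kg of concanavalin A (ConA) through the retro-orbital sinus; this jack bean lectin stimulates T cells and is used to bring on immune-mediated liver injury. They also received the cannabinoid delta-8-tetrahydrocannabinol (D8THC), at 20 mg/kg in DMSO and corn oil (100 µL), into the peritoneum, once 15 to 18 h ahead of ConA and once 30 min later than it. ConA+Vehicle mice received the same ConA dose with the DMSO and corn oil vehicle, and Vehicle mice received the vehicle alone and had no disease. Neither the number of mice behind a library nor the hour of tissue collection is given in the sources used.

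MicroRNAs are short RNAs that guide Argonaute proteins to messenger RNAs paired with their seed, bases 2 to 8 from the 5′ end, and lower the output of those messages. The miR-155 hairpin is cut from an exon of a non-coding RNA, Mir155hg, whose transcription is switched on by antigen-receptor, Toll-like receptor and interferon signalling in lymphocytes, macrophages and dendritic cells. In mice, miR-155-5p represses Socs1 and the phosphatase gene Inpp5d, both brakes on cytokine and receptor signalling, and mice without it have weak T cell, B cell and dendritic cell responses. Messenger RNAs were not measured in these libraries, so its targets are not analysed here.

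The sequences of both arms and of the hairpin that holds them are shown because the arms are counted separately and their counts differ by orders of magnitude. They are from RefSeq (GRCm38.p6, the same build as the mm10 named in the submitters' processing notes) and are written 5′ to 3′. In the arms the capitals mark the seed, and in the hairpin they mark the arms.
miR-155-5p: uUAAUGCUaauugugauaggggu
miR-155-3p: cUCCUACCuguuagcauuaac
Mir155 hairpin: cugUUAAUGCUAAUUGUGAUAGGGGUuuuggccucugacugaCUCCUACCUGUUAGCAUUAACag
The hairpin lies on the plus strand at chr16:84714140-84714204, in exon 2 of both annotated transcripts of the long non-coding RNA gene Mir155hg in GENCODE M21. miR-155-5p, of 23 bases at chr16:84714143-84714165, takes hairpin positions 4 to 26, and miR-155-3p, of 21 bases at chr16:84714182-84714202, takes positions 43 to 63, with 16 bases of loop between them. In the minimum free energy fold, 19 of the 23 bases of miR-155-5p were paired with miR-155-3p. Neither seed was shared with any other of the 1670 miRNAs of the table for which RefSeq gave a sequence. The nearest of them in sequence, miR-26b-5p, was 8 edits away from miR-155-5p.

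Library totals ran from 322764 to 1172389 counts, lowest in the ConA+Vehicle libraries, and 446 to 581 miRNAs had a count in a library. Of the 34 marker miRNAs of 9 cell types looked for, none was at 0 in any library. That is a low bar, which 1 count passes, as for miR-511-5p in ConA+Vehicle replicate 2. Markers of endothelial cells and hepatocytes took large shares of counts in these libraries of labelled immune cells, and the cells that carried them were not identified. The endothelial miRNA miR-126a, both arms summed, made up 20.7% to 26.7% of counts in ConA+D8THC, 12.8% to 13.2% in ConA+Vehicle and 32.7% to 34.2% in Vehicle. The 6 hepatocyte markers took 5.18% to 7.15%, 17.1% to 19.7% and 8.35% to 13.9% in the same order of groups. Most of this was miR-122-5p, and the markers did not move as one. At an edgeR adjusted p under 0.05, 4 of the 6 were higher and 1 lower in ConA+Vehicle against Vehicle. Of all 297 tested miRNAs, 19.9% were higher and 16.8% lower. Erythroid markers were at most 0.180% of counts in any library, stellate cell and fibroblast markers at most 1.32%, and bile duct markers at most 0.509%. In such bulk samples a change in the number of cells of a type cannot be told apart from a change in the RNA of each cell.

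miR-155-5p was counted far more often in mice given ConA, with or without D8THC, than in Vehicle mice. Its raw counts, replicate 1 first, were 7059 and 3838 for ConA+D8THC, 3660 and 2565 for ConA+Vehicle, and 1095 and 1245 for Vehicle. Scaled by TMM factors to CPM (counts per 1e6 counts, the unit of all levels that follow unless another is named), these were 7285 and 5460 in ConA+D8THC, 9125 and 8489 in ConA+Vehicle, and 1511 and 1091 in Vehicle. Both ConA+Vehicle libraries stood above both ConA+D8THC libraries, and these stood above both Vehicle libraries, so that no groups overlapped. In the order of counts within a library miR-155-5p was 20th and 29th in ConA+D8THC, 18th and 21st in ConA+Vehicle, and 54th and 59th in Vehicle.

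The counting error of these levels was small beside the spread between replicates. As a share of all counts miR-155-5p was at 0.773% (Wilson 95% interval 0.755% to 0.791%) and 0.556% (0.538% to 0.573%) in the ConA+D8THC libraries. The share was 0.960% (0.929% to 0.991%) and 0.795% (0.765% to 0.826%) in ConA+Vehicle. In Vehicle it was 0.145% (0.137% to 0.154%) and 0.106% (0.100% to 0.112%). Replicates of each group differed by more than these intervals, which cover counting error only.

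**Figure D1:**
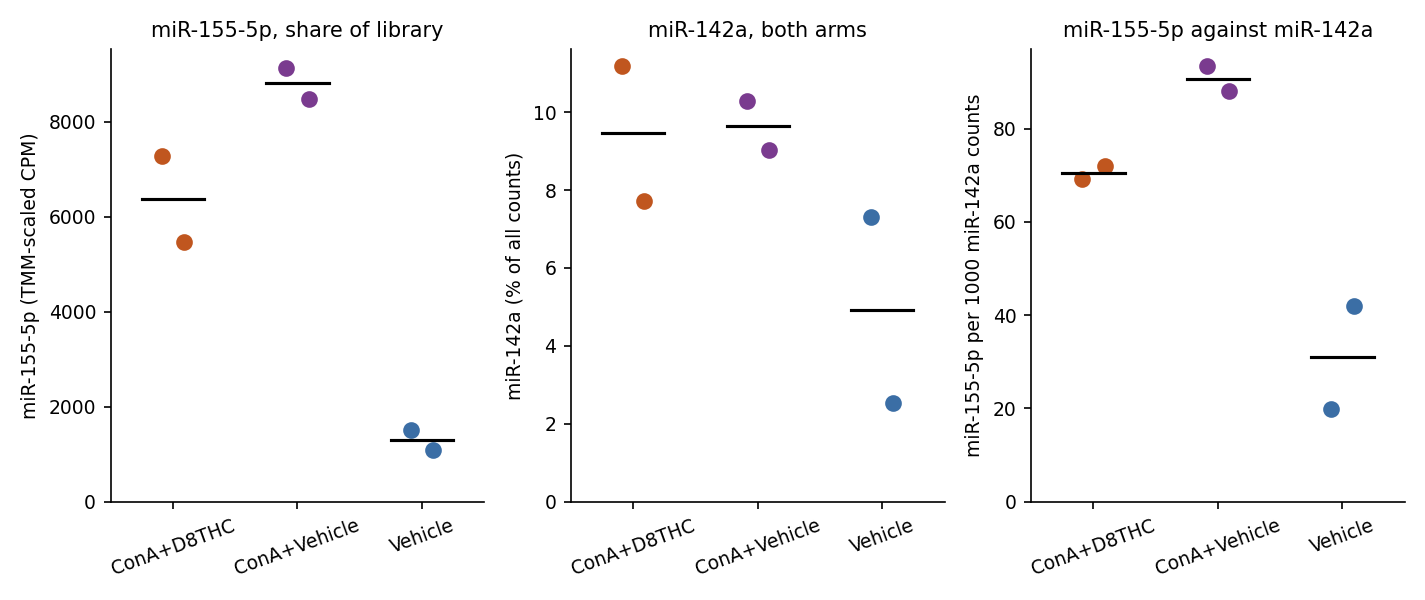
Each point is 1 library and each bar the mean of 2; the panels plot miR-155-5p in TMM-scaled CPM, both arms of miR-142a as a percentage of all counts, and miR-155-5p counts per 1000 miR-142a counts, for ConA+D8THC, ConA+Vehicle and Vehicle. The groups are apart in the CPM and the per-miR-142a panels, and the Vehicle libraries differ from each other in miR-142a, at 7.31% and 2.53%.

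The effect of ConA without D8THC was read from ConA+Vehicle against Vehicle. miR-155-5p averaged 8807 ± 450 CPM in ConA+Vehicle and 1301 ± 297 CPM in Vehicle (SD, n = 2 each). It rose 6.77-fold, with a 95% interval of 4.62-fold to 9.93-fold (log2 2.76 ± 0.25, SE; edgeR quasi-likelihood test with Benjamini-Hochberg adjustment over 297 miRNAs, adjusted p = 5.32e-05). Of the 297 miRNAs tested, 36.7% were called in this comparison, 19.9% higher and 16.8% lower. The balance turned with the library size used. With miR-142a counts 9 were called higher and 63 lower, against 59 higher and 50 lower with TMM. With leukocyte marker counts (miR-142a, miR-223 and the lymphocyte markers summed) 11 were called higher and 97 lower. Both ConA+Vehicle libraries were above both Vehicle libraries for 38.0% of the miRNAs, and below them for 29.3%. By size, miR-155-5p was the 16th highest of the 297 changes. Among the 64 miRNAs averaging at least 1000 CPM it was number 3 from the top, after the neutrophil and monocyte miRNA miR-223-3p (8.12-fold) and miR-20b-5p (7.98-fold).

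The state of D8THC-treated mice relative to undiseased mice was read from ConA+D8THC against Vehicle. miR-155-5p averaged 6372 ± 1290 CPM in ConA+D8THC and 1301 ± 297 CPM in Vehicle (SD, n = 2 each). It rose 4.90-fold, with a 95% interval of 3.37-fold to 7.13-fold (log2 2.29 ± 0.24, SE; edgeR, adjusted p = 0.000164). In this comparison 32.7% of the tested miRNAs were called, 18.5% higher and 14.1% lower (5 higher and 50 lower with miR-142a as library size, 10 and 84 with leukocyte markers), and groups did not overlap for 37.7% in the higher and 37.0% in the lower direction. miR-155-5p was the 17th highest of the 297 changes and again number 3 of the 64 abundant miRNAs, after miR-20b-5p (6.43-fold) and miR-223-3p (4.93-fold). This comparison shares its Vehicle libraries with the one before, so the 2 results are not independent.

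The effect of D8THC under ConA was read from ConA+D8THC against ConA+Vehicle, and here miR-155-5p did not pass the test. It averaged 6372 ± 1290 CPM in ConA+D8THC and 8807 ± 450 CPM in ConA+Vehicle (SD, n = 2 each), which was 0.724-fold (log2 -0.47 ± 0.23, SE; edgeR, adjusted p = 0.349). The 95% interval of the fold change ran from 0.506 to 1.04, which includes both no difference and a level of 0.506 times that in ConA+Vehicle. The libraries did not overlap, with the higher ConA+D8THC library at 7285 CPM and the lower ConA+Vehicle library at 8489 CPM, but 25.3% of the tested miRNAs had ConA+D8THC libraries all below those of ConA+Vehicle and 21.5% had them all above. The edgeR test called 3.70% of the 297 in this comparison, all of them lower, but 5 were called higher and 9 lower when hepatocyte and endothelial markers were left out. miR-155-5p was 228th from the highest change. With the replicate number as a block, its adjusted p was 0.0538 (edgeR; log2 -0.48). Hepatocyte and endothelial markers took different shares of counts in these groups, as given above. Of the 6 hepatocyte markers 4 were called lower here, and of the 2 endothelial markers 0 were called, against 3.70% of all 297. With these markers left out of the fit, miR-155-5p was at log2 -0.31 ± 0.25 (SE, edgeR adjusted p = 0.577). The part of the cells that carried them in the level of miR-155-5p was not tested.

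**Figure D2:**
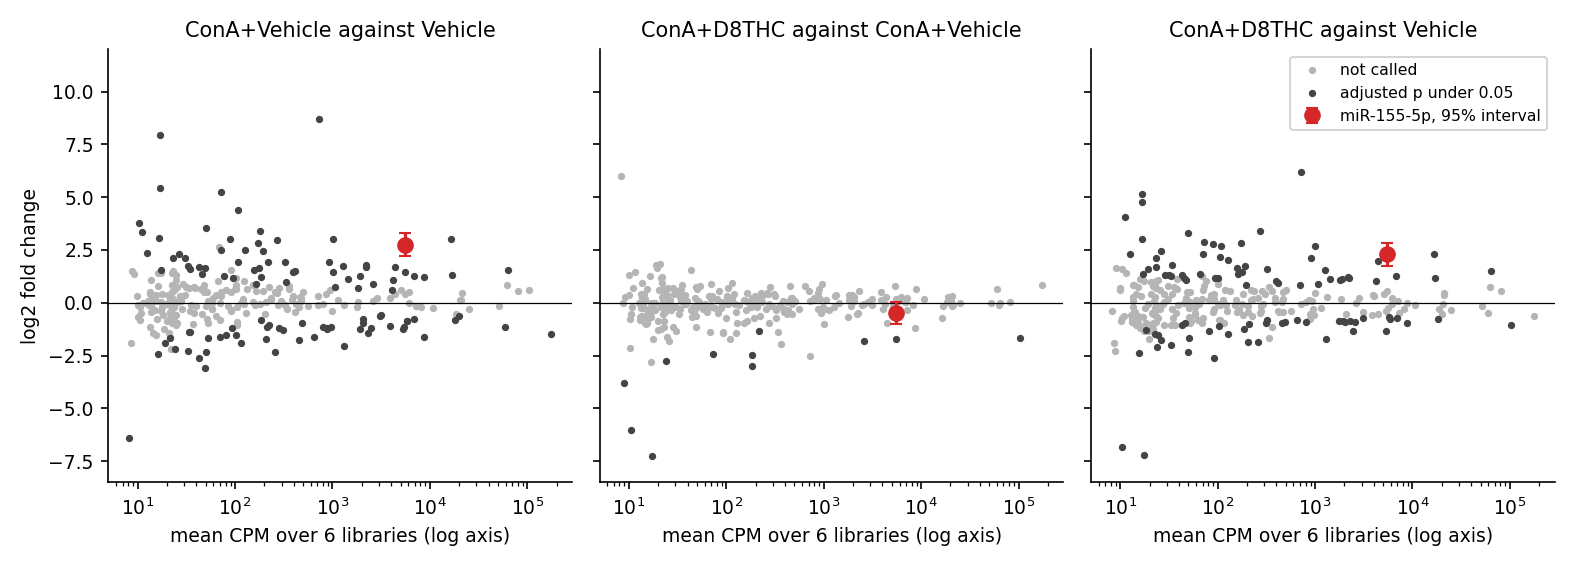
Each point is 1 of the 297 tested miRNAs, with its mean CPM over 6 libraries on a log axis and its log2 fold change in each of the 3 comparisons; dark points have an edgeR adjusted p under 0.05, and miR-155-5p is red with its 95% interval. It stands at 2.76, -0.47 and 2.29 in the panels from left to right, above most miRNAs of its abundance where Vehicle is the denominator.

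The size of the rise depended on what miR-155-5p was counted against. miR-142a, which all blood-cell lineages express, took 11.2% and 7.72% of counts in ConA+D8THC, 10.3% and 9.03% in ConA+Vehicle, and 7.31% and 2.53% in Vehicle. Per 1000 miR-142a counts there were 69.1 and 71.9 counts of miR-155-5p in ConA+D8THC, 93.4 and 88.0 in ConA+Vehicle, and 19.9 and 42.0 in Vehicle. The order of the groups was the same as in CPM and again none overlapped, and the replicates of ConA+D8THC were closer to each other than in CPM. How many other miRNAs were apart on this scale was not counted, so the gap is not shown to be particular to miR-155-5p. The ratio of means was 2.93-fold for ConA+Vehicle over Vehicle, against 6.77-fold in CPM. For ConA+D8THC over Vehicle it was 2.28-fold, against 4.90-fold in CPM. It was 0.778-fold for ConA+D8THC over ConA+Vehicle.

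These ratios differed with the Vehicle library they were taken over. Without Vehicle replicate 2, the one with the lower miR-142a share, ConA+Vehicle stood 4.56-fold above Vehicle per miR-142a count, and without Vehicle replicate 1 it stood 2.16-fold above. For ConA+D8THC the values were 3.55-fold without Vehicle replicate 2 and 1.68-fold without Vehicle replicate 1. When edgeR was run with the miR-142a count as the library size, a setting chosen after seeing the data, miR-155-5p was no longer called in ConA+Vehicle against Vehicle (log2 1.55 ± 0.75, SE; edgeR adjusted p = 0.120). It was not called in ConA+D8THC against Vehicle either (log2 1.19 ± 0.75, SE; adjusted p = 0.211). On that scale the median of all 297 miRNAs moved to log2 -1.17 in ConA+Vehicle and -1.21 in ConA+D8THC, against 0.10 and -0.06 with TMM.

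**Figure D3:**
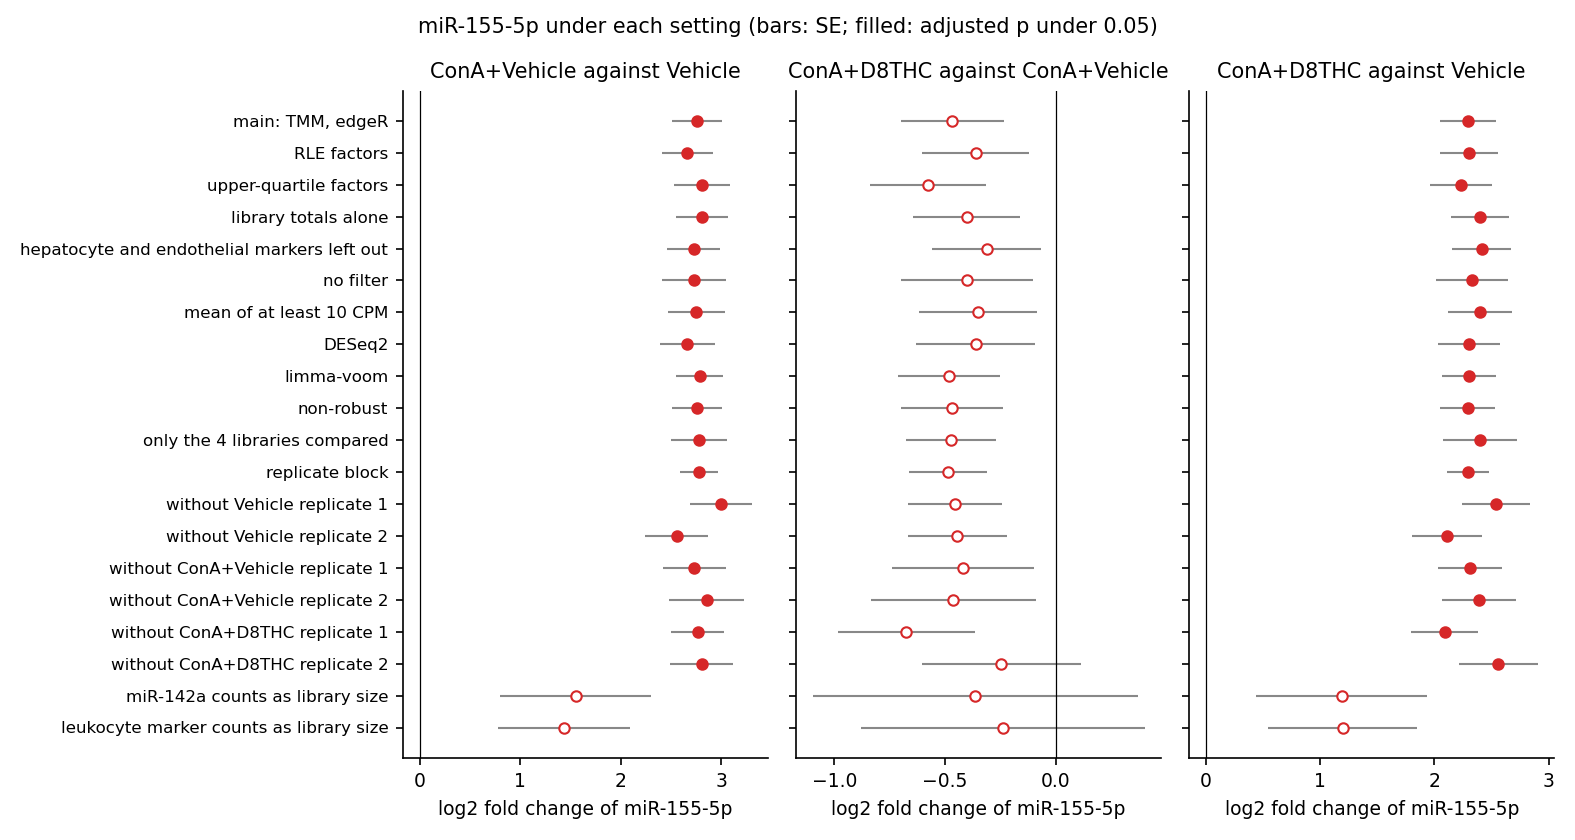
Log2 fold change of miR-155-5p in each comparison (x axis) under the reported fit and each other setting (y axis), with SE as bars and filled points for an adjusted p under 0.05. For ConA+Vehicle against Vehicle the bottom pair of settings, which use blood-cell miRNAs as library size, give 1.55 and 1.44, and all other settings give at least 2.56.

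Markers of blood-cell types moved beside miR-155-5p. The myeloid miRNA miR-223-3p averaged 17331 ± 4190 CPM in ConA+D8THC, 28525 ± 3459 CPM in ConA+Vehicle and 3512 ± 111 CPM in Vehicle (SD, n = 2 each), the same order of groups as miR-155-5p. The order was another for miR-223-5p, at 153.7 ± 32.2 CPM in ConA+D8THC, 132.6 ± 46.5 CPM in ConA+Vehicle and 33.5 ± 8.38 CPM in Vehicle (SD, n = 2 each). Both arms of miR-223, the whole myeloid list, were called higher in both comparisons with Vehicle. Of all 297, 19.9% were called higher in ConA+Vehicle against Vehicle and 18.5% in ConA+D8THC against Vehicle. The 5 lymphocyte markers took 0.644% to 1.05%, 0.875% to 1.12% and 0.568% to 0.817% in the same order of groups. Of these 5, miR-342-3p alone was called higher in ConA+Vehicle against Vehicle (1.65-fold, edgeR adjusted p = 0.0468), a share close to the 19.9% called higher over all 297, and the lymphoid miRNA miR-150-5p was not called (log2 0.50 ± 0.29, SE). Both arms of miR-511, a resident macrophage miRNA encoded in Mrc1, were called lower in ConA+Vehicle against Vehicle, as were 16.8% of all 297. The ConA+Vehicle counts behind this were low, 4 and 5 for miR-511-3p and 4 and 1 for miR-511-5p. In ConA+D8THC against Vehicle miR-511-3p alone was called lower (14.1% of all 297 were), with miR-511-5p at log2 -0.07. Together the arms took 0.00405% to 0.00569% of counts in ConA+D8THC, 0.00186% to 0.00210% in ConA+Vehicle and 0.0113% to 0.0154% in Vehicle. The part of these cell types in the level of miR-155-5p was not tested, and the libraries do not say which cells carried it.

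Over the 6 libraries miR-155-5p averaged 5494 CPM, which placed it 31st, between miR-191-5p at 5497 CPM and the stellate cell and fibroblast miRNA miR-199a-3p at 5398 CPM. These averages did not differ beyond the spread of the libraries, but the profiles did. miR-191-5p was at 6670 and 6147 CPM in ConA+D8THC, 5400 and 6073 CPM in ConA+Vehicle, and 4021 and 4671 CPM in Vehicle, and was called in none of the 3 comparisons (edgeR adjusted p from 0.0522 to 0.788). miR-199a-3p ran the other way, at 4420 and 6870 CPM in ConA+D8THC, 3052 and 3492 CPM in ConA+Vehicle, and 6966 and 7588 CPM in Vehicle. It was called lower in ConA+Vehicle against Vehicle (log2 -1.15, edgeR adjusted p = 0.00391). A count per miRNA also carries the ligation preference of the library kit, so an order of abundance across miRNAs is an order of counts.

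The miRNAs whose levels followed miR-155-5p most closely were picked by Pearson's r of log2(CPM + 1) over the 6 libraries, among 291 other miRNAs averaging at least 10 CPM. They were miR-421-3p (r = 0.998), miR-20b-5p (0.997), miR-147-5p (0.995), miR-92a-3p (0.995) and miR-147-3p (0.993). With 6 libraries in 3 groups, any miRNA that is low in Vehicle and slightly lower in ConA+D8THC than in ConA+Vehicle has a high r, and the libraries are shared by all. Their sequences, where RefSeq gave one, are shown with the seed in capitals for comparison with miR-155-5p.
miR-20b-5p: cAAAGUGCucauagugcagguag
miR-147-5p: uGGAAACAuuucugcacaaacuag
miR-92a-3p: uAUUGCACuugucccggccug
They lie at chrX:52742159-52742181 on the minus strand (miR-20b-5p), at chr2:122640814-122640837 on the plus strand (miR-147-5p), and, for the miR-92a-3p copy of Mir17hg, at chr14:115044476-115044496 on the plus strand. None of these seeds is that of miR-155-5p. That of miR-20b-5p is shared with 6 others in the table, miR-17-5p, miR-20a-5p, miR-93-5p, miR-106a-5p, miR-106b-5p and miR-6383, whose reads can be close to its own. The seed of miR-92a-3p is shared with 5 others, miR-25-3p, miR-32-5p, miR-363-3p, miR-367-3p and miR-92b-3p.

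The similar miRNAs differed widely in level and in the size of their change. miR-20b-5p was nearest in size, at 1534 and 990 CPM in ConA+D8THC, 1683 and 1453 CPM in ConA+Vehicle, and 225 and 169 CPM in Vehicle. miR-92a-3p, cut from the Mir17hg transcript among others, was at 1766 and 1316 CPM in ConA+D8THC, 1808 and 1698 CPM in ConA+Vehicle, and 546 and 501 CPM in Vehicle, with a fitted ratio of ConA+Vehicle to Vehicle of 3.35. miR-147-3p, induced in mouse macrophages by Toll-like receptor ligands, was at 83.6 and 48.4 CPM in ConA+D8THC, 87.3 and 66.2 CPM in ConA+Vehicle, and 8.28 and 5.26 CPM in Vehicle. The other arm of that hairpin, miR-147-5p, had 1 count in all in Vehicle, so it has no usable fold, and was at 21.7 and 17.1 CPM in ConA+D8THC and 34.9 and 26.5 CPM in ConA+Vehicle. miR-421-3p was at 55.7 and 49.8 CPM in ConA+D8THC, 59.8 and 59.6 CPM in ConA+Vehicle, and 26.2 and 21.0 CPM in Vehicle, with a fitted ratio of ConA+Vehicle to Vehicle of 2.54. Since all 5 were picked on these libraries for their likeness to miR-155-5p, their differences between the groups are a description, with no test.

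**Figure D4:**
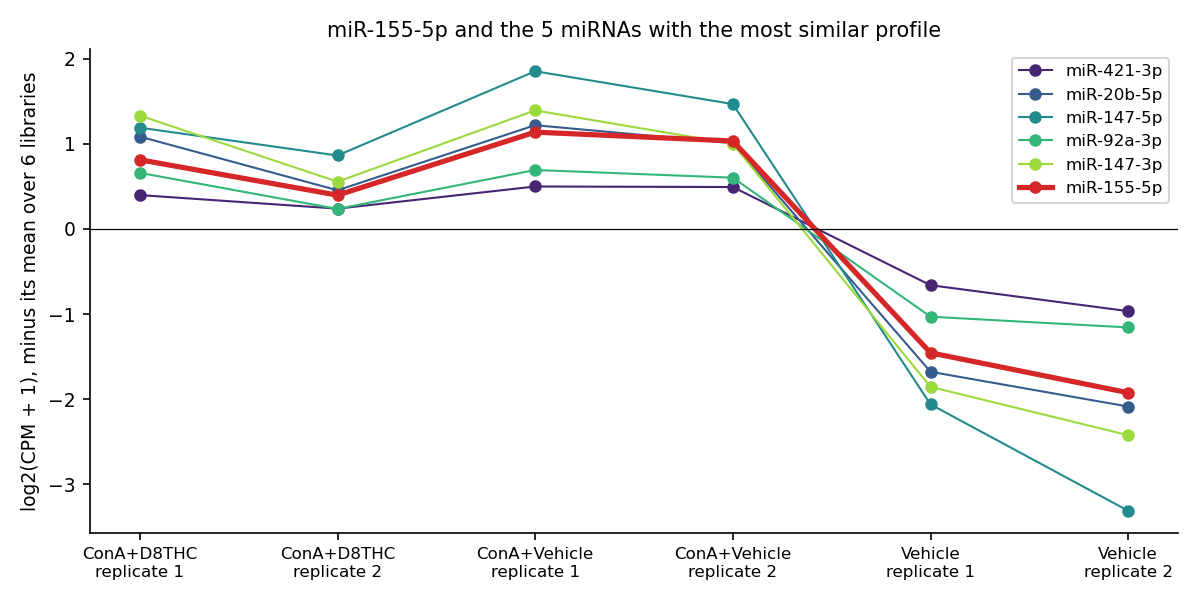
Log2(CPM + 1) of miR-155-5p (thick line) and of the 5 most similar miRNAs in each of the 6 libraries (x axis), after subtracting each miRNA's mean over the libraries; lines only join the values of 1 miRNA. Every miRNA shown is above its mean in the 4 libraries of mice given ConA and below it in both Vehicle libraries.

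Other miRNAs of lymphocyte and macrophage activation were read as 3 lists, none of which holds miR-155. The lists were chosen with earlier results of these data known. They are not separate sets, as miR-146a-5p is in both the inflammation-induced and the resting lymphocyte list. In ConA+Vehicle against Vehicle, 6 of the 11 tested inflammation-induced miRNAs were called higher and 1 lower, with a median log2 change of 1.54 against 0.10 over all 297, of which 19.9% were called higher and 16.8% lower. Among them were miR-21a-5p, an abundant inducible miRNA (2.90-fold), and miR-146b-5p, a relative of miR-146a (3.81-fold), and the lower one was miR-187-3p (log2 -1.38). miR-146a-5p, which NF-kappaB induces and which restrains the same signalling, averaged 18249 ± 2584 CPM in ConA+D8THC, 15325 ± 2544 CPM in ConA+Vehicle and 22426 ± 3194 CPM in Vehicle (SD, n = 2 each), and was not called in any comparison. Of the 12 T cell activation-induced miRNAs, 8 were called higher and 0 lower (median log2 1.57), with miR-20a-5p at 3.19-fold and miR-19b-3p at 3.43-fold among its most abundant members. Of the 9 resting lymphocyte miRNAs, 2 were higher, miR-29c-3p (1.54-fold) and miR-342-3p, and 1 was lower, miR-26a-5p (log2 -0.62), with a median log2 of 0.21. The share of these 9 called higher was near that over all 297. With RLE factors 0 of these 9 were called higher and 1 lower, against 55 higher and 53 lower of all 297. With miR-142a as the library size, 2, 0 and 0 members of these lists were called higher and 1, 0 and 0 lower. Of all 297, 9 were then called higher and 63 lower. The medians were 0.28, 0.32 and -0.92, against -1.17 over all 297. With leukocyte marker counts 3, 0 and 0 were called higher and 2, 0 and 3 lower, against 11 and 97 of all 297.

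In ConA+D8THC against Vehicle, 6 of 11, 9 of 12 and 1 of 9 members of these lists were called higher and 0 lower, and the medians were log2 1.35, 1.19 and -0.05, against -0.06 over all 297, of which 18.5% were called higher and 14.1% lower. With miR-142a as the library size 2, 0 and 0 were called higher and 0 lower, against 5 higher and 50 lower of all 297. The medians were then log2 0.16, 0.10 and -1.13, against -1.21 over all 297. With leukocyte marker counts 3, 1 and 0 were called higher and 1, 0 and 1 lower, against 10 and 84 of all 297. In ConA+D8THC against ConA+Vehicle the edgeR test called 0 of the 11, 0 of the 12 and 0 of the 9, and 0 in each list had an unadjusted p under 0.05. Neither DESeq2 nor limma-voom called a member. With 3.70% called over all 297, lists of this size say nothing particular by having 0 calls. The medians were log2 -0.03, -0.39 and 0.02, against -0.04 over all 297, where miR-155-5p was at -0.47. The medians of the inflammation-induced and resting lymphocyte lists changed sign with the scaling, from -0.14 with upper-quartile factors to 0.12 without hepatocyte and endothelial markers, and from -0.09 to 0.16, and so did the median of all miRNAs.

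miR-155-3p, the passenger arm, was scarce. It had 3 and 1 counts in the ConA+D8THC libraries, 6 and 3 counts in the ConA+Vehicle libraries, and 0 and 0 counts in the Vehicle libraries, and did not pass the filter on low counts. Pooled over the libraries of a group, it was at 2.49 CPM of the total count in ConA+D8THC (exact Poisson 95% interval 0.679 to 6.39), and at 12.8 CPM in ConA+Vehicle (5.85 to 24.3). In Vehicle, 0 of 1926276 counts gives an upper limit of 1.92 CPM by the same Poisson interval. With Vehicle set to a floor of 3 counts over the group, which is 1.56 CPM, the level in ConA+Vehicle was 8.21-fold that floor. This is not a lower limit of the difference. The upper limit of Vehicle, 1.92 CPM, is above the floor, and the interval of ConA+Vehicle, from 9 counts, starts at 5.85 CPM. The interval of ConA+D8THC, from 4 counts, starts at 0.679 CPM, below the upper limit of Vehicle, so these intervals do not separate it from Vehicle. The pooled ratio of ConA+D8THC to ConA+Vehicle was 0.195 (exact 95% interval 0.0439 to 0.699), from 4 against 9 counts. These intervals compare the libraries and carry no replicate error.

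With no filter on low counts, edgeR called miR-155-3p higher in ConA+Vehicle against Vehicle (adjusted p = 0.00239 over 806 miRNAs). It was not called in ConA+D8THC against ConA+Vehicle (edgeR adjusted p = 0.438) or in ConA+D8THC against Vehicle (edgeR adjusted p = 0.260). The unadjusted edgeR p was 0.0288 and 0.0488 in these comparisons, from 4 against 9 counts and 4 against 0. The profiles most like that of miR-155-3p, by the same measure, were those of miR-135a-5p (r = 0.970), miR-5099 (0.952) and miR-106a-5p (0.945), and they rest on its 0 to 6 counts a library.

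Nearly all counts of the hairpin fell on the 5p arm in every library. Of the miR-155 counts, miR-155-3p took 0.0425% and 0.0260% in the ConA+D8THC libraries, 0.164% and 0.117% in the ConA+Vehicle libraries, and none in Vehicle. Pooled by group the share was 0.0367% in ConA+D8THC (Wilson 95% interval 0.0143% to 0.0943%) and 0.144% in ConA+Vehicle (0.0760% to 0.274%). In Vehicle, 0 of 2340 miR-155 counts has a Wilson upper limit of 0.164%, and a floor of 3 counts is 0.128%. Both ConA+Vehicle libraries had a larger share than both ConA+D8THC libraries, from 9 counts against 4, and no test over replicates was made. The Wilson 95% intervals of these libraries overlapped, such as 0.0144% to 0.125% in ConA+D8THC replicate 1 and 0.0397% to 0.343% in ConA+Vehicle replicate 2. How many other hairpins separate these groups in this way was not counted.

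Among the 47 hairpins with both arms in the table and a major arm averaging at least 1000 CPM, the minor arm took a median of 0.512% of counts over the 6 libraries, and from 0.0161% to 24.2%. miR-155, at 0.0668%, had rank 6 from the lowest. The minor arm took 0.0351% in miR-146a, 0.439% in miR-21a, 0.739% in miR-223 and 21.1% in miR-142a; in miR-147, whose major arm is below that level, it took 23.5%. Unlike miR-155-3p, miR-21a-3p passed the filter on low counts and rose 7.74-fold in ConA+Vehicle against Vehicle (edgeR adjusted p = 0.000348).

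**Figure D5:**
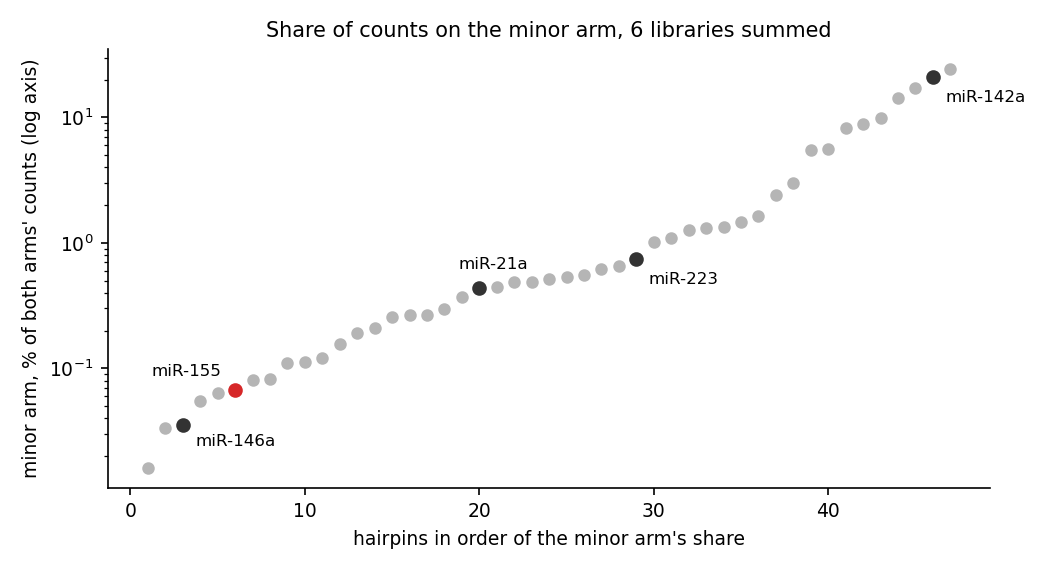
Share of counts on the minor arm (y axis, log scale, 6 libraries summed) for the 47 hairpins with a major arm of at least 1000 CPM, in order of that share (x axis). miR-155 is red, at 0.0668%, and black points mark miR-146a, miR-21a, miR-223 and miR-142a.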

How the data were processed

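The authors deposited raw read counts per mature miRNA, from QIAseq libraries run on a NextSeq 550 and aligned and counted in the GeneGlobe portal, per the labels' design text. The build was mm10, per the submitters' processing notes; tool versions and the treatment of reads matching more than 1 miRNA are not stated there. No label ties a library to single mice, so p-values measure only the spread between these libraries.

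R 4.3.3 and edgeR 4.0.16 were used on these counts. filterByExpr kept 297 of 1960 miRNAs, and the fit took TMM factors and group as the only term over 6 libraries (3 residual degrees of freedom), with robust glmQLFit and glmQLFTest and calls at an adjusted p under 0.05. A standard error was |log2 fold change| divided by the root of the F statistic. Alternatives used limma 3.58.1 and DESeq2 1.42.0; RNAfold 2.7.2 folded the hairpin. Exact permutation of 2 against 2 libraries cannot go below p = 1/3, so levels, shares and ratios carry no test. RefSeq gave sequences for 1671 of the 1960. The fit was tested on simulated data. Named miRNAs are the most abundant 4 of each list, the neighbours of miR-155-5p in level, those with the most similar profiles, and the arms of 5 comparison hairpins; miR-187-3p and miR-29c-3p were picked after their values were seen. The members and lists were chosen with earlier results of these data known.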

Additional observations from a re-analysis of the deposited data

How the results depend on the processing

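Over the 17 alternatives fixed at the start, miR-155-5p was called higher in all 17 in ConA+Vehicle against Vehicle (5.88-fold to 7.97-fold, adjusted p at most 0.000190) and in all 17 in ConA+D8THC against Vehicle (4.26-fold to 5.90-fold). In ConA+D8THC against ConA+Vehicle it was called in 0 of 17 (log2 -0.67 to -0.24), with an unadjusted p under 0.05 in 6; the lowest was without ConA+D8THC replicate 1 and the highest without ConA+D8THC replicate 2. Among the scalings with TMM, RLE, upper-quartile or no factors, or without hepatocyte and endothelial markers, the median of all miRNAs moved between log2 -0.15 and 0.12 in this comparison.

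The pair of settings added after seeing the data ended the calls of miR-155-5p against Vehicle. With miR-142a counts as library size it was at log2 1.55 in ConA+Vehicle and 1.19 in ConA+D8THC. With all leukocyte marker counts as library size it was at log2 1.44 (edgeR adjusted p = 0.0670) and 1.20 (edgeR adjusted p = 0.131). Most of these counts are miR-142a in every library, so this is not a separate check. They also hold miR-223-3p, itself 8.12-fold higher in ConA+Vehicle against Vehicle. As plain ratios of mean levels, without a model, the same scales gave log2 1.55 and 1.44 for ConA+Vehicle and 1.19 and 1.20 for ConA+D8THC. The miR-142a share differed between the Vehicle libraries and the standard errors were larger on these scales; the cause was not tested.

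The number of miRNAs called in ConA+D8THC against ConA+Vehicle, 11 in the reported fit, was 17 under upper-quartile scaling, 19 unfiltered, 19 for a mean of at least 10 CPM, 17 in DESeq2, 18 with only the 4 libraries compared, 44 with the replicate block, and 4 with miR-142a or with leukocyte markers as library size. Of these, 5 were higher and 12 lower in DESeq2, and 12 higher and 32 lower with the block. Leaving out single libraries gave 8 to 40, with more than 1.5 times the calls in every case but ConA+Vehicle replicate 1 (8), and 40 (10 higher, 30 lower) and 34 (8 higher, 26 lower) without Vehicle replicates 2 and 1. In ConA+Vehicle against Vehicle the count was 109, then 67 (without ConA+Vehicle replicate 1) to 129 without single libraries, and 72 with miR-142a as library size. In ConA+D8THC against Vehicle it was 97, then 63 (without ConA+D8THC replicate 1) to 112, and 55.

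The labels give all groups replicate numbers 1 and 2 but do not say that a number marks a shared litter, batch or day. Deviations of same-numbered libraries correlated across miRNAs with r = 0.20 (ConA+Vehicle and Vehicle), 0.24 (ConA+D8THC and Vehicle) and 0.07 (ConA+D8THC and ConA+Vehicle). With the replicate block miR-155-5p stood at log2 2.78 for ConA+Vehicle over Vehicle, 2.30 for ConA+D8THC over Vehicle, and -0.48 for ConA+D8THC over ConA+Vehicle, and none of its 3 calls changed. Where 1 library of a group was left out, the lone library was assumed to vary like the others. Depth limits miR-155-3p, whose shares rest on 13 counts.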
